A study of Mus musculus with 6 samples.

Results

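Small leucine-rich proteoglycans are secreted matrix proteins built around a curved stack of leucine-rich repeats, most of them carrying glycosaminoglycan chains. Their transcripts were examined in mouse fibrosarcoma cells in which Rras2 had been knocked down. The group comprised Fmod, Dcn, Bgn, Lum, Ogn, Omd, Prelp, Aspn and Podn together with Islr, a gene of the immunoglobulin superfamily that has leucine-rich repeats and encodes the mesenchymal cell-surface protein Meflin. These 10 genes were taken by symbol out of 19505 genes measured. The group was chosen by the difference between knockdown and control that these same arrays gave for Fmod and Islr, with relatives of Fmod added by name, so the differences of the 10 genes are given as a description with no test of their own.

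The cells were fibrosarcoma cells of C57BL/6 background carrying Rras2(Q72L), a mutant form of a RAS-related GTPase, and this form was present in both groups. Controls had been transduced with the empty vector pLKO (replicates 1 to 3 in the labels), and knockdown cells with the Rras2 shRNA sh#89 (replicates 4 to 6). All were grown in medium with fetal bovine serum, and 1 array was run per sample. With 1 shRNA, off-target effects and the loss of Rras2 cannot be told apart. Whether the 3 samples of a group were independent cultures is not in the labels, and the errors and p-values below measure only how these samples scatter, which may be technical.

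Rras2 itself had log2 signals of 10.67, 10.75 and 10.82 in controls 1 to 3 and 9.09, 9.69 and 9.21 in knockdown arrays 4 to 6. The log2 difference was -1.41 ± 0.14 (SE; limma adjusted p = 0.00163, exact two-sided permutation p = 0.1, the smallest that 3 arrays against 3 allow). The signal left was 31.8%, 48.1% and 34.6% of the control mean on arrays 4, 5 and 6, so the knockdown was shallowest on array 5. Across the series 1017 of 19505 genes (5.21%) passed limma's adjusted threshold of 0.05, 584 of them (2.99%) higher and 433 (2.22%) lower; without each array in turn the count ranged from 392 to 1136. The arrays carry no detection calls. The 95th percentile of the 5222 negative-control probe sets, at 7.85 to 7.97 on the 6 arrays, served as a mark of background, and 7574 genes lay above it on all 6 arrays.

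The tissue label, fibrosarcoma, was checked against 8 measured fibroblast markers. Vim (13.84 ± 0.03 in controls, SD, n = 3), Col3a1 and S100a4 were far above background. Thy1, Col1a2 and Fap did not exceed the background mark on any array. Summed over the 8 genes, the linear signal was 21373 to 22348 in the controls and 22792 to 23653 in the knockdown. None of the 6 leukocyte, 4 endothelial and 4 epithelial markers measured exceeded the mark on any array, and none of these 14 genes passed limma's threshold, 2 of them (Kdr and Tek, both endothelial) having an unadjusted p under 0.05. Their summed linear signals were 295.0 to 335.9 in controls against 300.3 to 314.4 in knockdown for leukocytes, 137.6 to 151.1 against 141.5 to 156.9 for endothelium and 330.3 to 369.3 against 320.9 to 368.4 for epithelium. Expression in bulk cells cannot tell a change in the share of cells from a change in RNA per cell.

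As background, decorin (Dcn), biglycan (Bgn) and asporin (Aspn) form class I of the family, fibromodulin (Fmod), lumican (Lum), PRELP and osteomodulin (Omd) class II, osteoglycin (Ogn) class III and podocan (Podn) a later class. Several of them bind fibrillar collagen and set the width and spacing of fibrils, and decorin, biglycan and fibromodulin also bind TGF-beta. In the RefSeq gene order of GRCm38.p6 many of the genes lie side by side. Prelp and Fmod are neighbours on chromosome 1 with the relative Optc. Dcn and Lum adjoin on chromosome 10, followed by Kera and Epyc. Aspn, Omd and Ogn are consecutive on chromosome 13 behind Ecm2, with 0 other protein-coding genes between members of each row. Islr lies next to Islr2 on chromosome 9, Podn is on chromosome 4 and Bgn is on the X chromosome.

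RefSeq start-site windows of GRCm38.p6 were available for 8 of the 10 genes. The 250 bases before the start are shown for Fmod and Islr, which had the largest differences of the 10 genes, and for Ogn and Aspn, the closest pair of the 10 in pattern over the arrays. Each is read 5′ to 3′ on the gene's own strand, with matches to the E-box CANNTG, the motif of basic helix-loop-helix factors, in capitals. The window of Fmod is chr1:134037004-134037253 on the plus strand, that of Islr chr9:58158555-58158804 on the minus strand, that of Ogn chr13:49607765-49608014 and that of Aspn chr13:49544193-49544442, both on the plus strand.
Fmod: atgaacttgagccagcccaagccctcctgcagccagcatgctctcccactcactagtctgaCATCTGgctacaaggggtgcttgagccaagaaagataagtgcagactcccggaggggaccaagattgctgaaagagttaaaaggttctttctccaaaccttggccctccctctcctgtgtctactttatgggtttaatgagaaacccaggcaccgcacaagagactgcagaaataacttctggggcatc
Islr: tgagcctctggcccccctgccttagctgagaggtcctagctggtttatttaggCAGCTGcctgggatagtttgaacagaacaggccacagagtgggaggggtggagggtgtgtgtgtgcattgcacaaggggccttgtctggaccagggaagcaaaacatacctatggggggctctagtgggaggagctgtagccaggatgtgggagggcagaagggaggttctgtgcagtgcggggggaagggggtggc
Ogn: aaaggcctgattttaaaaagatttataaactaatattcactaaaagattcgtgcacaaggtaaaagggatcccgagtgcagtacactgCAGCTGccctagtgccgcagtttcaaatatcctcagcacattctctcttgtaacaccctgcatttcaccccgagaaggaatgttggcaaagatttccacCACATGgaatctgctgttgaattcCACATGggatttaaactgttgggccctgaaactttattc
Aspn: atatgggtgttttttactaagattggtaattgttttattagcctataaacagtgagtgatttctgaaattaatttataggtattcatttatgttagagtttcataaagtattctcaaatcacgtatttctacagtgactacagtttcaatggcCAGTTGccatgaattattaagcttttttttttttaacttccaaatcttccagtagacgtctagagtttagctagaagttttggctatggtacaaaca
The windows of Fmod, Islr and Aspn hold 1 E-box each and that of Ogn holds 3. An E-box is common: of all 32851 windows of this length 66.2% hold one, and 6 of the 8 genes do. The form CAGCTG, in capitals in Islr and Ogn and also present in Bgn and Podn, occurs in 13.0% of all windows. The TGANTCA motif of AP-1 (6.75% of windows), the GTAAACA motif of FOXO factors (3.17%), the CArG box (1.47%) and the MEF2 box (2.92%) matched in 0 of the 8. CAGACA, a SMAD motif, matched only in Islr (17.1% of all windows), CATTCC, the TEAD motif, only in Ogn (12.6%), TGTGGT, the RUNX motif, only in Ogn (14.0%), and TATAAA in Ogn and Aspn (12.4%). Both strands were searched, CAGCTG is itself a CANNTG match, and a match is a run of letters, not a bound site. The windows also differ in base composition, with 30% G and C in Aspn, 42.0% in Ogn, 51.2% in Fmod and 59.6% in Islr, against a median of 52.4% over all windows.

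Fmod and Islr had the largest differences among the 10 genes. Fmod had log2 signals of 5.89, 6.83 and 5.96 in controls 1 to 3 and 9.33, 8.01 and 8.97 in knockdown arrays 4 to 6. All 3 knockdown arrays lay above all 3 controls. The difference was 2.54 ± 0.34 (SE), or 5.83-fold on the measured signals. All 3 controls, however, were below the background mark, so the measured fold is not a bound. With the mark in place of the dim control signals, Fmod was at least 1.84-fold higher. Subtracting each array's negative-control median on the linear scale before taking logs moved the difference to 3.30.

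Islr was above the background mark on every array, so its fold rests on measured signals in both groups. Its log2 signals were 8.19, 9.27 and 8.15 in the controls and 11.55, 10.75 and 11.44 in the knockdown. The lowest knockdown array was still above the highest control, and the difference was 2.71 ± 0.31 (SE), 6.56-fold. Without 1 array it stayed between 2.52 and 3.08, and that of Fmod between 2.26 and 2.93. The neighbour Islr2, which encodes a related membrane protein, stayed below the background mark on every array, with a difference of -0.03.

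Likeness of pattern was measured as the root mean square distance between deviations from each gene's own mean over the 6 arrays. This distance includes the difference between the groups by which Fmod and Islr were chosen, so genes with differences of like size come out near them by construction, and the ranks are a description only. Fmod and Islr lay 0.19 apart on the log2 scale, each being the nearest to the other of 19504 genes. Next to Fmod came Serpinb1a, a serpin (0.20), the probe set assigned to Mir675 (0.24), Igfbp2, a binding protein of insulin-like growth factors (0.25), and Postn, which encodes the matrix protein periostin (0.34). Next to Islr came Igfbp2 (0.23), Mir675 (0.30), Serpinb1a (0.32), Postn (0.36) and Acta1, the skeletal muscle actin gene (0.36). These lists were taken among the 8136 genes whose mean lay above the background mark.

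Dcn and Prelp had smaller differences, at signals that stayed below the background mark on all 6 arrays. Dcn, the decorin gene, had log2 signals of 6.81, 6.59 and 6.43 in the controls and 7.57, 7.05 and 7.50 in the knockdown. The groups did not overlap and the difference was 0.76 ± 0.15 (SE), with 0.67 to 0.92 when 1 array was left out and 1.01 after subtraction of the negative-control median. Prelp, which encodes a protein that links collagen to basement membranes, had 6.31, 6.55 and 5.85 against 7.19, 6.22 and 7.48. Knockdown array 5 lay among the controls here, and the difference of 0.73 ± 0.30 (SE) became larger without it, with a range of 0.47 to 1.1 over the 6 arrays left out. No fold is given for either gene, as both groups are dim. The genes nearest to Dcn in pattern were Tcn2, a carrier of vitamin B12 (0.05), Pgm5 (0.08), the collagen VI gene Col6a1 (0.09), Me3 (0.09) and the WNT receptor gene Fzd1 (0.09).

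**Figure D1:**
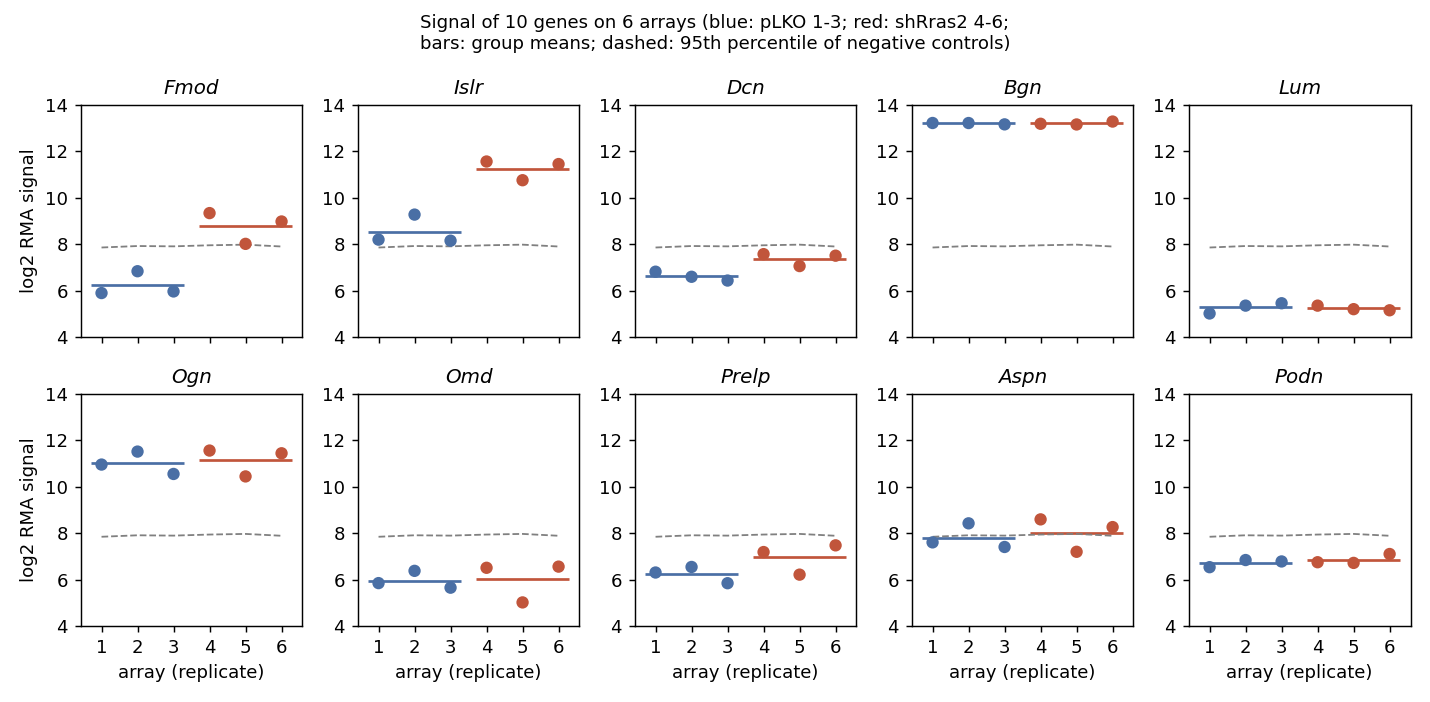
Log2 RMA signal (vertical axes) of the 10 genes on each array (horizontal axes, replicate numbers; blue, pLKO; red, shRras2), with group means as bars and the 95th percentile of the negative controls dashed. Fmod crosses the dashed line between the groups, Islr and Bgn lie above it throughout, and Ogn, Omd and Aspn are high on control 2 and low on knockdown array 5.

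Bgn, the biglycan gene, was bright and level across the series. Its log2 signals were 13.21, 13.21 and 13.15 in the controls and 13.18, 13.15 and 13.27 in the knockdown. The groups overlapped, and the difference of 0.01 ± 0.08 (SE) stayed between -0.03 and 0.03 without any 1 array. Biglycan is the closest relative of decorin. Near the top of the range signals can be compressed, and these values cannot show whether that occurred here.

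Lum and Podn were dim in both groups. Lum, the lumican gene, had 5.01, 5.35 and 5.45 in the controls and 5.35, 5.20 and 5.15 in the knockdown, close to the middle of the negative controls, of which 57.8% were below its control mean. The groups overlapped, with a difference of -0.04 ± 0.12 (SE). Podn had 6.54, 6.85 and 6.79 against 6.76, 6.73 and 7.11, again overlapping, with a difference of 0.14 ± 0.13 (SE). Neither exceeded the background mark on any array, and changes at such signals may go unseen.

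Ogn, Aspn and Omd, the 3 consecutive genes on chromosome 13, differed more between arrays of a group than between groups. Ogn, the osteoglycin gene, was above the background mark on every array, with 10.96, 11.52 and 10.56 in the controls and 11.56, 10.45 and 11.45 in the knockdown. Control 2 was as high as the upper knockdown arrays, and knockdown array 5 was the lowest of all 6. The difference was 0.14 ± 0.31 (SE).

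Aspn, which encodes the aspartate-rich asporin, had 7.61, 8.43 and 7.41 against 8.60, 7.20 and 8.27, with a difference of 0.21 ± 0.36 (SE). It crossed the background mark on 1 control and 2 knockdown arrays. Omd, the osteomodulin gene, had 5.86, 6.38 and 5.66 against 6.52, 5.03 and 6.57, all below the mark, and a difference of 0.07 ± 0.38 (SE). In both, control 2 was again the highest control and array 5 the lowest of the 6. Without knockdown array 5 the differences were 0.49 for Ogn, 0.62 for Aspn and 0.57 for Omd, and they fell to -0.09, -0.08 and -0.20 without control 3, knockdown array 4 and knockdown array 6 respectively.

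Ranked over all other 19504 genes by the distance used above, Ogn was the nearest gene to Aspn (0.12) and to Omd (0.18), and Aspn was the second nearest to Ogn and to Omd. This ranking was chosen after the values had been seen. Ecm2, the gene next to Aspn, encodes a leucine-rich matrix protein and had 5.21, 5.12 and 4.91 in the controls and 6.37, 5.68 and 6.26 in the knockdown. Array 5 was again the lowest knockdown array, but control 2 was not the highest control and the groups did not overlap. Ecm2 rose by 1.02 ± 0.17 (SE; limma adjusted p = 0.0115) at signals below the background mark on all arrays, and it missed the threshold without control 3, knockdown array 4 or knockdown array 6 (adjusted p = 0.0532, 0.0506 and 0.0546).

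**Figure D2:**
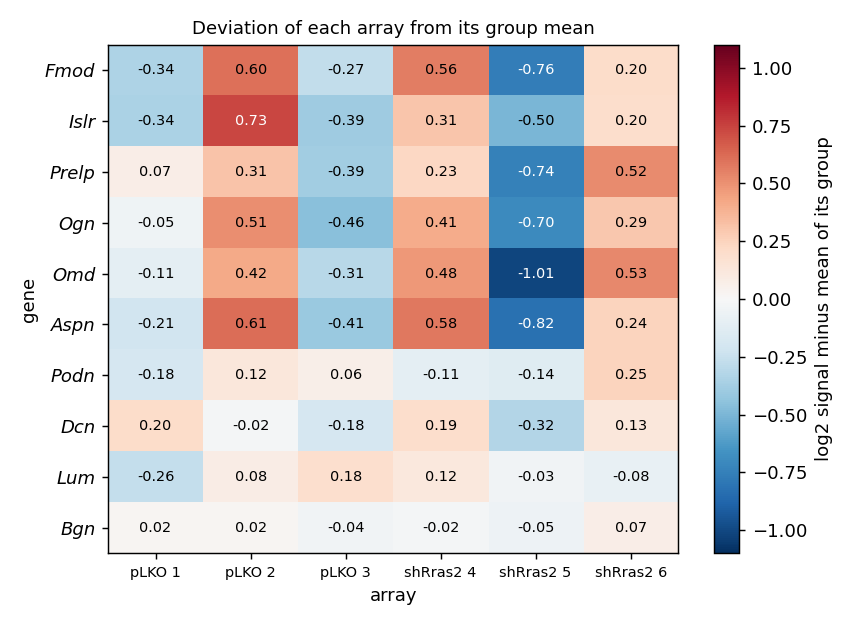
Log2 signal of each gene (rows) on each array (columns) minus the mean of its own group, with the value written in each cell and shown by colour. Control 2 is the highest control and array 5 the lowest knockdown array in the upper 7 rows (Fmod to Podn), and the deepest value is -1.01 for Omd on array 5.

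The same 2 arrays stood out for most of the 10 genes. Control 2 was the highest control and array 5 the lowest knockdown array for 7 of them, the exceptions being Dcn, Bgn and Lum. This pattern, noticed in the data, held for 13.6% of all genes. It is a matter of rank, and Dcn and Bgn were exceptions through control 2 alone, with array 5 still their lowest knockdown array. For Fmod, array 5 lay 1.14 below the mean of arrays 4 and 6, for Islr 0.75 and for Ogn 1.06, while the median over all genes was 0.00. The gap was smaller for Podn (0.21), which is among the 7, than for Dcn (0.48), which is not. A median near 0 does not make array 5 ordinary for other genes. In a principal component analysis of all genes it lay at -19.3 on component 2 (16.8% of the variance). The other 5 arrays lay at -5.72 to 10.3, so the departure of array 5 was not particular to the 10 genes. The remaining Rras2 signal was highest on array 5. Control 2 had a Rras2 signal between those of the other controls. Whether Rras2 depth has a part in these deviations was not tested.

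Counted together, 3 of the 10 genes (Fmod, Islr and Dcn) were past limma's threshold on the higher side and 0 on the lower side, where 5.21% of all genes were past it in either direction. The same 3 genes had groups that did not overlap, all higher in the knockdown, where 25.5% of all genes did not overlap (11.6% higher and 13.9% lower). Since the comparison was used to choose the genes, nothing is read from these counts. The other 7 genes overlapped. The median difference was 0.17 over the 10 genes and -0.01 over all genes. It depended on single arrays, being 0.60 without knockdown array 5, 0.45 without control 2, 0.11 without control 1, control 3 or knockdown array 4, and 0.05 without knockdown array 6. Without array 5 the non-overlapping genes numbered 5, Prelp and Omd being added, and without control 1 the groups of Lum separated on the lower side.

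**Figure D3:**
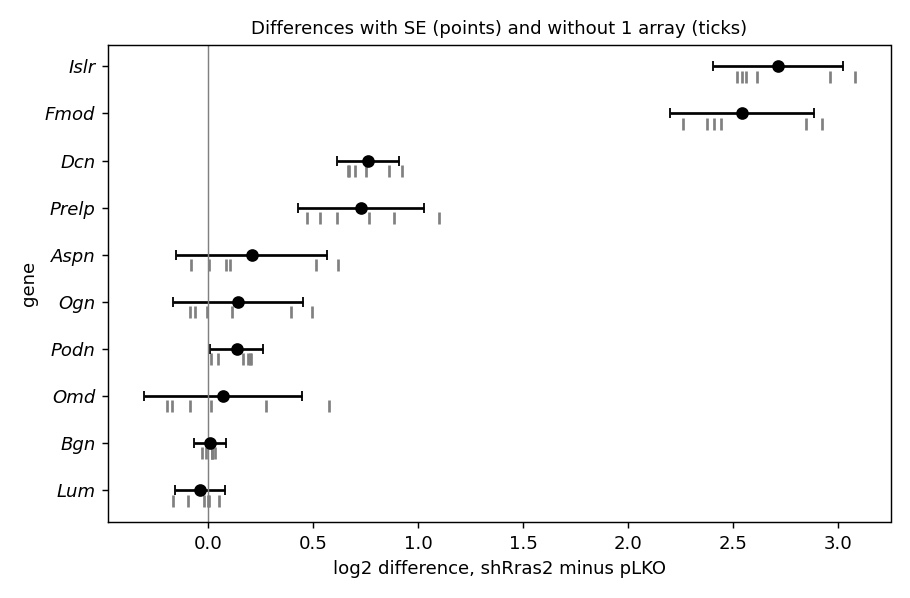
Log2 difference, shRras2 minus pLKO (horizontal axis), of each gene (vertical axis), with its SE as bars and the 6 values without 1 array as grey ticks. Islr and Fmod lie above 2 with every array left out, whereas the ticks of Aspn, Ogn and Omd fall on both sides of 0.

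Skeletal muscle markers moved with the groups in the same direction as Fmod, Islr and Dcn. Of 15 measured, 11 rose and 0 fell (limma), among them the myosin genes Myl1 (3.86 ± 0.25, SE; adjusted p = 0.000223) and Myh3 (3.61 ± 0.24; adjusted p = 0.000223), both below the background mark in the controls and at least 7.24-fold and 4.95-fold higher against it. Of the 11 calls 9 held with every array left out. That of Myog was lost without knockdown array 6, and that of Actn2 held only without control 1 or knockdown array 5. The summed linear signal of the 15 was 1669 to 1886 in the controls and 5960 to 10348 in the knockdown, the lowest being that of array 5. On no array did 5 of the 15 exceed the background mark, the called genes Tnnc2 and Des among them. The part of the skeletal muscle markers in the differences of the leucine-rich genes was not tested. Of the other lineages, smooth muscle (5 measured), chondrocyte (7), osteoblast (5) and tendon (3) markers had 0 genes past limma's threshold, with 2, 0, 1 and 1 at an unadjusted p under 0.05. Their summed linear signals in controls and knockdown were 20363 to 22456 and 23033 to 24844 for smooth muscle, 1482 to 1662 and 1592 to 1691 for chondrocytes, 331.0 to 386.8 and 342.5 to 390.6 for osteoblasts, and 888.7 to 926.8 and 899.2 to 1223 for tendon. On no array was the background mark exceeded by 1 smooth muscle, 6 chondrocyte, 5 osteoblast and 1 tendon marker, whose changes may go unseen. Sox9 (10.05 in controls) was the only chondrocyte marker above it, and Acta2 (13.81 in controls) was the brightest smooth muscle marker. Among 5 adipocyte markers Pparg rose by 0.68 ± 0.10 (SE; limma adjusted p = 0.00641) at signals below the background mark, and the 5 summed to 314.9 to 321.6 in controls and 351.2 to 394.4 in the knockdown. None of the 5 exceeded the mark on any array. Cidec, a lipid droplet gene and the other of 2 adipocyte markers with an unadjusted p under 0.05, had a difference of -0.41 ± 0.12, also below the mark (limma adjusted p = 0.0974). Of the 8 fibroblast markers Col3a1 rose, as given below, and Pdgfrb, a PDGF receptor gene, rose by 0.37 (limma adjusted p = 0.0486), a call that held only without knockdown array 5 among the fits without 1 array and was lost with median centring (adjusted p = 0.0599) and with every transcript probe set tested (0.0524).

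The surroundings of the proteoglycans were followed in 9 lists, whose counts are to be read against the 2.99% of all genes called higher and 2.22% called lower. Of the 9 other family members and relatives measured, Ecm2 alone was past the threshold and 0 were lower; none of the 9 exceeded the background mark on any array, among them Optc (0.29 ± 0.12), Kera (0.06) and Epyc (-0.09).

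Fibrillar collagens and their partners, to which decorin, fibromodulin and lumican bind, had 5 rises and 0 falls among 16 genes, with a list median of 0.20 against -0.01 for all genes. Col6a2 rose from 8.09 ± 0.34 to 9.32 ± 0.37 (SD, n = 3 each), by 1.23, and its partner chain Col6a1 by 0.77. Col6a2 exceeded the background mark on only 2 of the 3 controls. Collagen VI is a known ligand of decorin and biglycan. The third chain measured, Col6a3, was above the background mark on every array and did not pass, with a difference of -0.12 ± 0.08 (SE; limma adjusted p = 0.485). Col3a1, the collagen III gene, rose by 0.69 and the minor fibrillar chain Col11a1 by 0.59, the latter below the background mark. For Col6a2, Col6a1, Col3a1 and Col11a1 the limma adjusted p was 0.0125, 0.0148, 0.0313 and 0.0173. With trend and robust eBayes settings Col3a1 missed the threshold (limma adjusted p = 0.0557). Col1a1 had a difference of 0.24 ± 0.10 and did not pass (limma adjusted p = 0.248). The number of rises was 1, 4 and 0 without controls 1, 2 and 3 and 2, 5 and 0 without knockdown arrays 4, 5 and 6, so none of the 5 calls held with every array left out.

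Among 12 enzymes and chaperones that modify or cross-link collagen 1 rose and 0 fell. This was Lox, the lysyl oxidase gene, whose protein fibromodulin is known to bind. It went from 11.57, 11.71 and 11.44 in the controls to 12.49, 12.33 and 12.50, well separated, by 0.86 ± 0.10 (SE; limma adjusted p = 0.00212), and it held without any 1 array.

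Enzymes that build the sugar chains went both ways. Of 20 chondroitin and dermatan sulfate genes 2 rose and 2 fell (median -0.10). Csgalnact1, which starts the chondroitin chain, fell by 0.74 (limma adjusted p = 0.00222) and held without any 1 array, and its paralogue Csgalnact2 fell by 0.37 (adjusted p = 0.0412). Csgalnact1 exceeded the background mark on all 3 controls and on 2 of the 3 knockdown arrays. Chst3, a chondroitin sulfotransferase gene, and Chsy3, a chondroitin synthase gene, rose by 0.64 and 0.62 at signals below the background mark (limma adjusted p = 0.0318 and 0.0253). The calls of Csgalnact2, Chst3 and Chsy3 each held in 1 of the 6 fits without 1 array, that of Csgalnact2 without knockdown array 5, of Chst3 without knockdown array 4 and of Chsy3 without control 1. In the list for keratan sulfate, the chain of fibromodulin and lumican, and for tyrosine sulfation, 1 of 10 genes fell and 0 rose. It was B4galt1, a galactosyltransferase gene, by 0.47 (limma adjusted p = 0.0178), and it missed the threshold without control 1, control 3 or knockdown array 6 (adjusted p = 0.0682, 0.0710 and 0.0564).

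Matrix proteases and their inhibitors had the highest median of the 9 lists, 0.41, with 8 rises and 0 falls among 16 genes. The proteoglycan-cleaving Adamts5, Adamts4 and Adamts1 rose by 1.82 ± 0.14, 1.30 ± 0.12 and 0.99 ± 0.10 (SE; limma adjusted p = 0.000355, 0.00092 and 0.00168). Adamts5 exceeded the background mark on only 1 of the 3 controls, so its difference rests in part on dim signals. Adamts9, another of the 8 rises, stayed below the mark on every array. Mmp19 rose by 1.45 (limma adjusted p = 0.000324), at least 2.06-fold against the background mark. Of the 8 calls 7 held with every array left out, the exception being the inhibitor gene Timp3, whose call held only without knockdown array 5.

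Of 15 TGF-beta ligands, receptors and targets 5 rose and 0 fell (median 0.32). The list did not move as 1. The receptor gene Tgfbr3 had a difference of -0.45 ± 0.11 (SE) below the background mark and did not pass (limma adjusted p = 0.0619). The targets Smad7 (-0.05) and Ccn2 (0.05), above the mark on every array, did not pass either. Tgfb2 rose by 0.75, Tgfb3 by 0.66, Thbs1, which encodes an activator of latent TGF-beta, by 0.67 and Tgfbi by 0.65 (limma adjusted p = 0.00609, 0.0280, 0.00272 and 0.0213), and the receptor gene Tgfbr2 was the fifth. Tgfbi exceeded the background mark on only 2 of the 3 controls. Tgfb1 had a difference of 0.32 ± 0.08 and did not pass (limma adjusted p = 0.0582), but it passed under 4 of the 8 other settings (cyclic loess, 0.0485; dimmest 30% of genes left out, 0.0313; trend and robust eBayes, 0.00431; array weights, 0.0363) and without knockdown array 5 (0.0450). The number of rises was 2 without control 1, 2 or 3, 3 without knockdown array 4 or 6 and 6 without knockdown array 5, and the calls of Tgfb2 and Thbs1 held throughout. Among 13 receptors known to bind proteins of the family, such as Egfr, Met, Tlr2 and Tlr4, 0 passed limma's threshold and 2 had an unadjusted p under 0.05 (median 0.00). These were Kdr, a VEGF receptor gene (-0.28 ± 0.08; limma adjusted p = 0.0948), and Cd14, a co-receptor gene of Toll-like receptors (-0.57 ± 0.14; limma adjusted p = 0.0544), named after their values were seen. Without knockdown array 5 the call on Cd14 passed. Kdr stayed below the background mark on every array. Cd14 exceeded the mark on 1 control and 0 knockdown arrays, so no fall of Cd14 can be bounded against it.

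Other proteoglycans gave 2 rises and 2 falls among 25 genes (median -0.05). Esm1, which encodes endocan, fell by 1.56 (limma adjusted p = 0.000799), at least 1.32-fold against the background mark, and Sdc4, a cell-surface syndecan gene, by 0.62 (adjusted p = 0.00407). Agrn, the agrin gene, and the glypican gene Gpc1 rose by 0.70 and 0.63 (limma adjusted p = 0.0156 and 0.00336). All but the call of Agrn held without any 1 array; that of Agrn held only without control 2 or knockdown array 5.

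**Figure D4:**
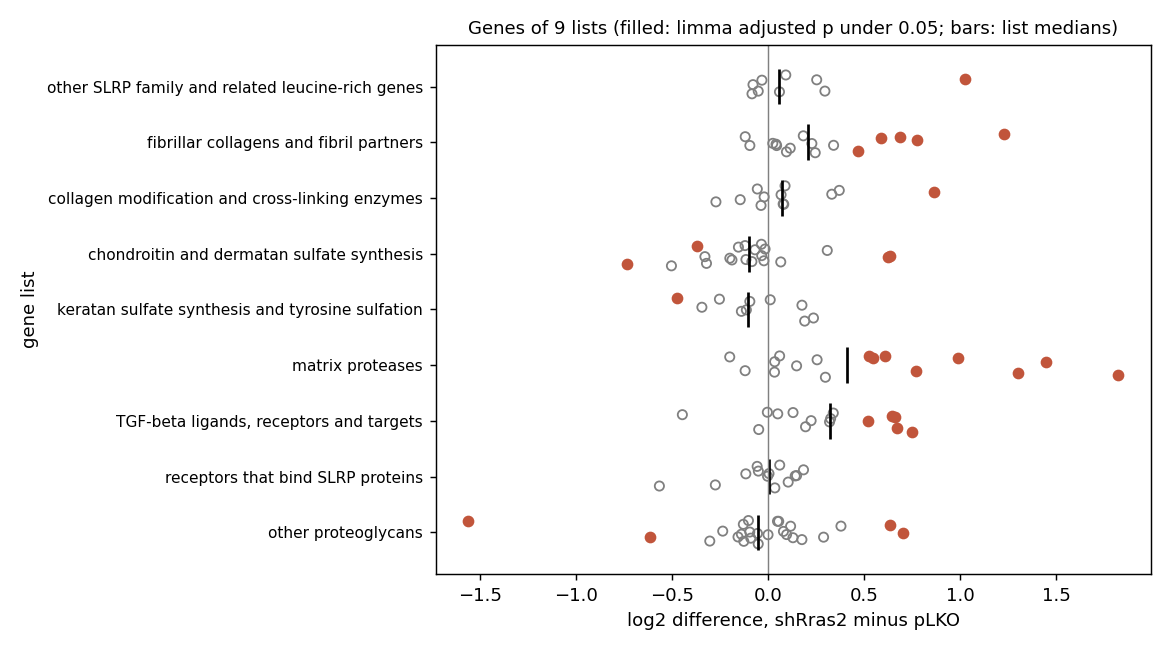
Log2 difference, shRras2 minus pLKO (horizontal axis), of each measured gene in 9 lists (vertical axis); filled points passed limma's adjusted threshold of 0.05, open ones did not, and bars mark list medians. The highest median, 0.41, is that of the proteases and inhibitors, and the filled points of the collagen, protease and TGF-beta lists all lie on the right.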

How the data were processed

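Total RNA of 6 samples (3 pLKO, 3 shRras2) was hybridised to 1 Affymetrix array each. The deposited values are log2 signals, and RMA and R 3.6.3 are what the submitters' processing notes name for them; package, filters and build: not given in the sources used here. Of 22206 transcript probe sets 19572 carried 1 symbol in the platform annotation and 2634 none; the brightest of several was kept for 55 genes. Differences (knockdown minus control) came from limma 3.58.1 in R 4.3.3 (lmFit, eBayes, two-sided, no covariates), Benjamini-Hochberg adjusted over 19505 genes at 0.05, and the method was tested on simulated data. The number of arrays limits the precision (median SE 0.096). Alternatives were other normalizations, filters, probe set summaries, variance models and leaving out each array.

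The 10 genes, the 9 pathway and 10 marker lists and the naming rule were chosen with earlier results of these data known. The rule names, per pathway list, up to 4 genes past the threshold with the largest differences and up to 2 more of the opposite direction, up to 2 per marker list, Col1a1, Col3a1, Lox, Tgfb1 and Ecm2 in any case, and the 5 genes nearest in pattern to Fmod, Islr and Dcn. Islr2, Optc, Kera, Epyc, Kdr, Cd14, Col6a3, Cidec, Tgfbr2, Tgfbr3, Smad7, Ccn2, Adamts9, marker examples and Timp3 lie outside the rule. So do the receptor genes Egfr, Met, Tlr2 and Tlr4, and Oas1b, Irgm1, Sp100 and Lrrc17 under other observations. An at-least fold is given where all arrays of 1 group are under the negative-control mark (95th percentile); it is taken against the higher of that mark and the gene's own signal. Promoter windows come from RefSeq (GRCm38.p6).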

Additional observations from a re-analysis of the deposited data

How the results depend on the processing

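Under the 8 other settings besides leaving out arrays, Rras2 stayed below the controls and past the threshold, and 3 of the 10 leucine-rich genes had groups that did not overlap. With eBayes trend and robust settings 1908 genes passed limma's threshold (965 higher, 943 lower) in place of 1017 (584 and 433). Median centring gave 506 higher and 567 lower. The genes of the 9 lists called lower numbered 5, and 8 with median centring, 9 with the dimmest 30% of genes left out (which drops Lum) and 11 with the trend and robust settings. Without 1 array the series gave 392 to 1136 calls (280 to 684 higher, 112 to 452 lower), the lists 11 to 26 higher and 3 to 7 lower, Rras2 -1.59 to -1.29, the 10 genes a median of 0.050 to 0.60, 3 to 5 separated higher and 0 to 1 separated lower. Of 405 values of named genes under alternatives 345 kept direction and side of the threshold, 55 lost the threshold, 5 gained it and 0 of those past it reversed. No paired analysis was possible because the groups share no replicate number. Subtracting the negative-control median could not be computed for Omd. Array signal near background limits Dcn, Lum, Omd, Prelp and Podn.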

Other observations

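Several of the genes that most resembled Ogn, Aspn and Omd over the 6 arrays are known interferon-response genes; they were picked after their values had been seen, and no test was made. Oas1b, of the oligoadenylate synthetase family, was the nearest of all 19504 genes to Ogn (distance 0.12 on the log2 scale), the second nearest to Aspn and the third nearest to Omd. Its log2 signals were 7.97, 8.26 and 7.46 in controls 1 to 3 and 8.63, 7.25 and 8.27 in knockdown arrays 4 to 6, so control 2 was the highest control and array 5 the lowest of all. Irgm1, an interferon-induced GTPase gene, had 10.92, 11.07 and 10.41 against 11.39, 10.59 and 11.33, and it was the fifth nearest to Ogn at 0.18. Sp100, a nuclear body gene, was the fourth nearest to Omd at 0.21. Lrrc17, another secreted leucine-rich repeat gene outside the 10, was the third nearest to Ogn at 0.15, with 7.70, 8.25 and 7.36 against 8.20, 7.14 and 7.79. These ranks were taken without a filter on signal. Oas1b lay below the background mark on control 3 and array 5, and Lrrc17 exceeded it only on control 2 and knockdown array 4.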
